A study of Mus musculus with 9 samples.

Results

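The 10 genes described here encode parts of the vacuolar proton pump (V-ATPase), and were taken by symbol from the 24421 genes of the count table: Atp6v0a1, Atp6v0b, Atp6v0c, Atp6v0d1, Atp6v0d2 and Atp6v0e of the membrane sector (V0), Atp6v1a, Atp6v1b2 and Atp6v1h of the peripheral sector (V1), and the accessory subunit Atp6ap1. RNA was sequenced from brain microglia sorted as Cx3cr1+CD45+CD11b+ cells. They came from Mcoln1-/- mice (MLIV, a model of mucolipidosis type IV, n = 3), Gla y/- mice (FD, a model of Fabry disease, n = 3) and controls (WT, n = 3). All are given as strain C57CL6J and, in the title of the series, as 4 months old. The study's methods describe control littermates for the Mcoln1 line. They state that the Gla line was kept as homozygotes, which gives no WT littermates of the FD mice. The study's methods give a younger age, and a number of mice per condition that differs from the number of libraries here. Mcoln1 encodes a lysosomal cation channel and Gla the lysosomal enzyme alpha-galactosidase A, and both models carry germline alleles. No source used here ties each library to separate animals, so the p-values measure the spread between these libraries.

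The V-ATPase is a rotary pump in the membranes of lysosomes, endosomes and phagosomes. Its V1 sector hydrolyses ATP in the cytosol, and its V0 sector carries protons across the membrane, which gives lysosomal hydrolases the acid pH they need. Several subunits have tissue-restricted forms encoded by separate genes. Transcription factors of the MiT family (Tfeb, Tfe3, Mitf) are known to act on many lysosomal genes through the CLEAR element, whose core is the palindrome TCACGTGA.

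The libraries held 22772300 to 37801200 counts. Mcoln1 had 0, 0 and 18 counts in the MLIV libraries, 1442, 1227 and 892 in FD, and 1082, 1517 and 2 under the WT label. The library labelled WT replicate 3 thus had a Mcoln1 count like those of the MLIV libraries, against its label, and every comparison is given with it (9 libraries) and without it (8 libraries). Gla, whose transcript was not lost in FD, had 406, 556 and 448 counts in MLIV, 155, 147 and 136 in FD and 119, 281 and 380 in WT, so it does not check the FD label. Xist ranged over 1358 to 1521 CPM (counts scaled to library size) in FD, was 1448, 1026 and 4.00 CPM in MLIV, and 0.523 to 4.10 CPM in WT. The Y-linked Ddx3y was at most 0.0622 CPM in FD, 0, 26.6 and 76.7 CPM in MLIV and 89.2 to 118 CPM in WT. The FD libraries thus had the pattern of female cells, which goes against the male genotype given (y/-). Sex and FD therefore cannot be told apart against WT. The MLIV libraries were mixed: replicate 1 had the female pattern, replicate 3 the male pattern, and replicate 2 both Xist and Ddx3y. Why replicate 2 had both was not tested. The summed level of 12 microglial markers was 24512 to 30743 CPM with none at 0 in any library, while 8 neuronal markers summed to at most 17.6 CPM. Markers of other cells moved with the groups. Of 10 neutrophil markers, Csf3r, which microglia also express, made up most of the sum, and the other 9, a split made after their values were seen, summed to 168, 155 and 286 CPM in MLIV, 5.29, 5.22 and 1.41 CPM in FD and 26.4, 58.1 and 55.9 CPM in WT. FD replicate 1 had 3 of these 9 at 0 and FD replicate 3 had 6. The 5 monocyte markers summed to 35.8 to 42.8 CPM in MLIV, 17.6 to 31.8 CPM in FD and 17.8 to 38.8 CPM in WT, and the 5 oligodendrocyte markers to 125, 128 and 124 CPM in MLIV, 116, 98.8 and 84.7 CPM in FD and 115, 102 and 138 CPM in WT. The 7 border macrophage markers overlapped between the groups and were highest, at 524 CPM, in the library labelled WT replicate 3. The astrocyte and endothelial sums (5 markers each) overlapped between MLIV and FD and were at most 61.1 and 69.4 CPM. The part of these cells in the results was not tested. FD replicate 3 had 12032 genes with a count, the fewest, against 22932 in WT replicate 1, the most.

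Promoter sequence is shown for the members that carry the CLEAR palindrome or its core, since these are the letters the MiT factors are known to read. RefSeq (GRCm38.p6) gave promoters, 250 bases before to 50 after a transcript start, for 7 of the 10 members. TCACGTGA was present in those of 3 members, Atp6v0d1, Atp6v0e and Atp6v1a, against 1.12% of 27025 genes with a promoter (0.974% of 32851 promoters). The core CACGTG, which lies within TCACGTGA, was present in these 3 and in Atp6v0b, against 8.09% of genes (7.15% of promoters). Both palindromes read the same on either strand. Capitals mark the palindrome.
Atp6v0d1: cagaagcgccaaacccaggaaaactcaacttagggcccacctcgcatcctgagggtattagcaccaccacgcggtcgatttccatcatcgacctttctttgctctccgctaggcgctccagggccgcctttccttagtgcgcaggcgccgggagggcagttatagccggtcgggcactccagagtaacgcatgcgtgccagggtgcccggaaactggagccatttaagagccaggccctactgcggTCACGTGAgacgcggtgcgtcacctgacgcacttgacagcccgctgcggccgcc
Atp6v0e: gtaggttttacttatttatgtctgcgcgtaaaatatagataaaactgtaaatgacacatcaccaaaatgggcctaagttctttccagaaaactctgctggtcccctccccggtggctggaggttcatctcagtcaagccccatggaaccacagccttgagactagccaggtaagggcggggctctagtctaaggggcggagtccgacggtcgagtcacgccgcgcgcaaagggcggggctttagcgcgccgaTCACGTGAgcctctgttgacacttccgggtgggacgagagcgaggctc
Atp6v1a: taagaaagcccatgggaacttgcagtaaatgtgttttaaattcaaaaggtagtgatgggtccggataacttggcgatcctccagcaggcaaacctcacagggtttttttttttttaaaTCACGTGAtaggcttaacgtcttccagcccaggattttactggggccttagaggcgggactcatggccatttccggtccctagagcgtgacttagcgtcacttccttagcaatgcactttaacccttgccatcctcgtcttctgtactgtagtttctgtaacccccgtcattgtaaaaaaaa
Atp6v0b: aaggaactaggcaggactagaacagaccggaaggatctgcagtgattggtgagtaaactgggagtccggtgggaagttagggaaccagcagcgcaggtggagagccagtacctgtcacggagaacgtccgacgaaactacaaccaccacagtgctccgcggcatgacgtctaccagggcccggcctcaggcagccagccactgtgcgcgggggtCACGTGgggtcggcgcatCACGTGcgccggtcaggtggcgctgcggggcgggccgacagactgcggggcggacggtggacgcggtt
The windows are chr8:105566015-105566314 (minus strand), chr17:26676146-26676445 (plus), chr16:44139210-44139509 (minus) and chr4:117887280-117887579 (minus), in the order printed. The Atp6v1a transcript start in RefSeq lies 240 bases from the start of the gene in the count table, and that of Atp6v0d1 24 bases. A match describes these letters and was not tested as a binding site.

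Levels were compared between genes as CPM per kb of exon. Atp6v0b, which encodes a subunit of the proton-carrying ring, was highest among the members, with a median of 117 CPM per kb over the 9 libraries (range 99.5 to 145), and lay above Atp6ap1 in every library. Atp6ap1, an accessory subunit of the V0 sector, followed at 71.3 CPM per kb, then Atp6v0a1 at 58.9, Atp6v0e at 46.4, Atp6v0d1 at 42.7, Atp6v1b2 at 32.0, Atp6v1h at 18.3 and Atp6v1a at 11.6. Neighbours in this order overlapped for Atp6ap1 over Atp6v0a1 (7 of 9 libraries), Atp6v0a1 over Atp6v0e (6 of 9), Atp6v0e over Atp6v0d1 (7 of 9) and Atp6v1h over Atp6v1a (7 of 9), and the order held in all 9 libraries for Atp6v0d1 over Atp6v1b2 and for Atp6v1b2 over Atp6v1h. Among the 16 other subunit genes, Atp6v1f of the V1 stalk had the highest median, 139 CPM per kb.

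**Figure D1:**
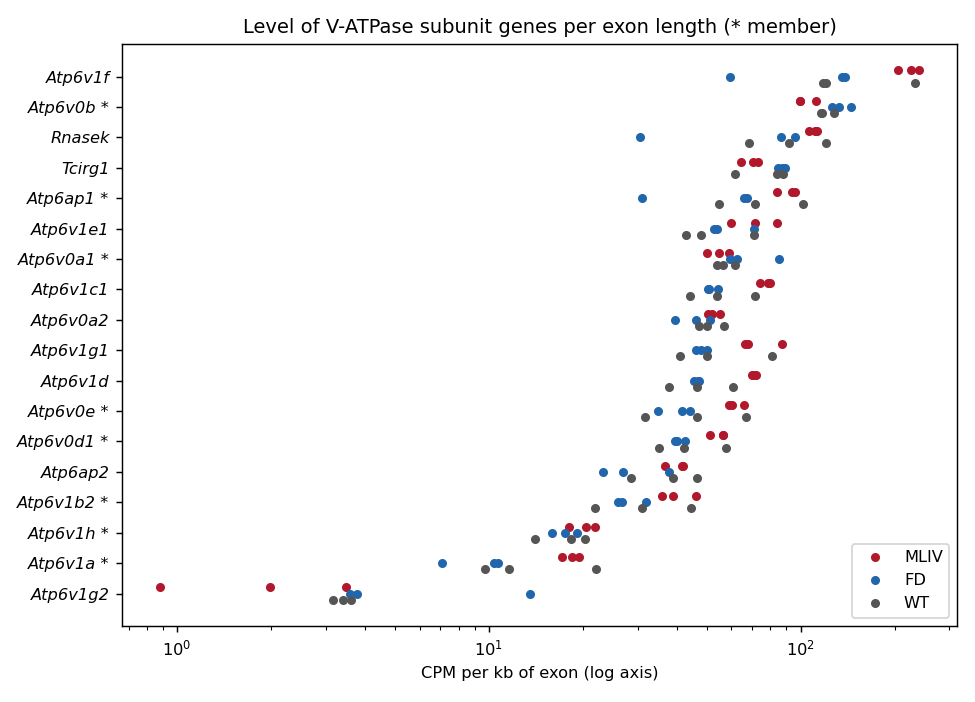
Level of V-ATPase subunit genes with a median over 0.5 CPM per kb of exon (log axis), 1 point per library, MLIV, FD and WT. Members are starred, and Atp6v0b (99.5 to 145 CPM per kb) had the highest median of them.

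Atp6v0d2 and Atp6v0c lay at the bottom. Atp6v0d2, the form of the d subunit known from osteoclasts, kidney and some macrophages, had 26, 40 and 52 counts in MLIV, 8, 14 and 0 in FD, and 49, 0 and 38 in WT. Its share of the pair with the ubiquitous Atp6v0d1, per kb, was 0.527%, 0.877% and 1.25% in MLIV, 0.232%, 0.460% and 0% in FD and 2.09%, 0% and 0.740% in WT. The MLIV libraries lay above the FD libraries and within the range of WT. Its log2 fold change of MLIV against FD was 2.33 ± 1.83 (adjusted p of 0.541 by edgeR with 9 libraries), and did not pass. Atp6v0c, which encodes the main subunit of the proton-carrying ring, had 0 counts in all 9 libraries. Of its 1151 exon bases, 1117 (97%) are also assigned in the counting annotation to Atp6v0c-ps2, which had 0 counts too, and reads that overlap more than 1 gene are by default not counted. The 0 therefore gives no level for Atp6v0c, and the gene could not be tested.

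The a subunit anchors the stator and differs between organelles. Atp6v0a1 made up 33.0%, 31.3% and 28.6% of the summed CPM per kb of the 4 a subunit genes in MLIV, 31.7%, 30.1% and 40.8% in FD and 29.4%, 29.9% and 33.2% in WT. Tcirg1, the a3 form of osteoclasts and macrophage lysosomes, made up 36.1%, 40.1% and 41.7% in MLIV, 45.0%, 44.0% and 40.3% in FD and 44.1%, 42.6% and 37.7% in WT. Atp6v0a2 made up 30.9%, 28.7% and 29.6% in MLIV, 23.3%, 25.9% and 18.9% in FD and 26.2%, 27.5% and 29.0% in WT. MLIV lay above FD in every library for Atp6v0a2, and the groups overlapped for Atp6v0a1 and Tcirg1. These shares were not tested.

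**Figure D2:**
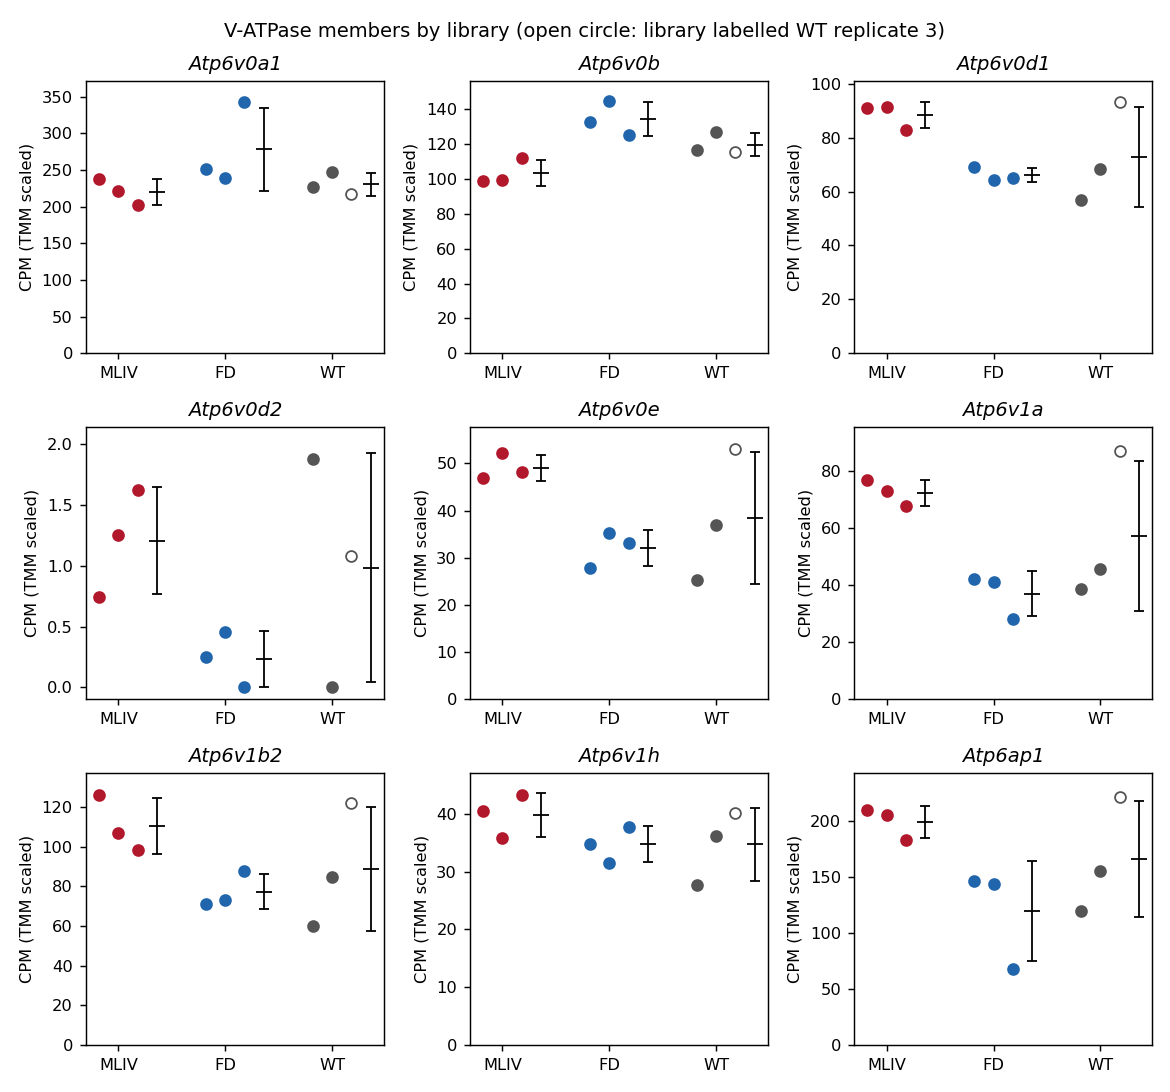
CPM of the 9 members with counts, 1 point per library, MLIV, FD and WT, with the mean and SD of the 3 libraries beside them. The open circle is the library labelled WT replicate 3, which for Atp6v1a (87.1 CPM) lay above the other 2 WT libraries (38.5 and 45.7 CPM).

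MLIV against FD compares the disease models, whose libraries also differed in every summed level of neutrophil, monocyte and oligodendrocyte markers given above, all higher in MLIV. Their sex patterns differed too, female in FD and mixed in MLIV. The part of sex in this comparison was not tested. Of the 9 members tested, 7 were higher in MLIV and 2 lower by sign, with a median log2 fold change of 0.51 against 0.03 over all genes (9 libraries), but none passed edgeR's quasi-likelihood test after Benjamini-Hochberg adjustment, where 1.26% of 15340 genes did. At an unadjusted p below 0.05 there were 6 members, against 19.4% of all genes, and DESeq2 called 2 (Atp6v1a and Atp6v0b), against 12% of genes. The 3 MLIV libraries did not overlap the 3 FD libraries for 8 of the 9 members, 6 higher and 2 lower, against 16% and 11.8% of all genes. The 6 include Atp6v0d2, which had at most 14 counts in an FD library. In the fit without the library labelled WT replicate 3, which shares the estimate of the spread, 1 member (Atp6v1a) passed, against 5.63% of 17440 genes. In that fit 7 members had an unadjusted p below 0.05 (17.6% of genes) and DESeq2 called 6 (14.6% of genes). Without FD replicate 3 as well, 6 members passed, against 10.8% of genes: Atp6v1a, Atp6v0e, Atp6v1b2, Atp6v0d1 and Atp6ap1 higher and Atp6v0b lower in MLIV.

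Atp6v1a (chr16:44085404-44139019, minus strand, mm10, 15 exon entries), the catalytic A subunit that hydrolyses ATP, had 76.7, 72.9 and 67.6 CPM in MLIV, against 42.2, 41.0 and 27.9 CPM in FD. Every MLIV library lay above every FD library, and the means were 72.4 ± 4.58 and 37.0 ± 7.89 CPM (SD, n = 3 each). Its log2 fold change was 0.97 ± 0.27 (SE) with 9 libraries, at an adjusted p of 0.0840 by edgeR's quasi-likelihood test, and 0.96 ± 0.18 with 8 libraries, at an adjusted p of 0.00640. With 8 libraries it passed in 16 of 17 alternatives (adjusted p of 3.42e-05 to 0.0652). With 9 libraries it passed in 3 of 18 alternatives (adjusted p of 0.00640 to 0.283), which were DESeq2, the fit of only these groups and that leaving out the library labelled WT replicate 3. The exception with 8 libraries was an offset for gene length read from all genes, with 0.94 ± 0.28 and an adjusted p of 0.0652.

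Atp6v1b2, the B subunit that pairs with A, had 126, 107 and 98.5 CPM in MLIV, against 71.1, 73.3 and 87.7 CPM in FD, with no overlap (log2 fold change 0.51 ± 0.16, adjusted p of 0.0916 by edgeR with 8 libraries). Atp6v0e, a small V0 subunit, had 46.8, 52.2 and 48.1 CPM in MLIV, against 27.8, 35.3 and 33.1 CPM in FD (0.61 ± 0.19, adjusted p of 0.0787). Atp6v0d1, which links V0 to the central stalk, had 91.0, 91.3 and 82.6 CPM in MLIV, against 69.1, 64.2 and 65.0 CPM in FD (0.41 ± 0.14, adjusted p of 0.117). These 3 members lay apart in every library without passing the test.

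Atp6ap1 had 211, 205 and 184 CPM in MLIV, against 147, 144 and 68.0 CPM in FD (log2 fold change 0.73 ± 0.26, adjusted p of 0.170 by edgeR with 8 libraries). FD replicate 3 was the low library. The gene lies on the X chromosome (chrX:74297097-74304721, mm10). MLIV replicate 1, with high Xist like the FD libraries and no Ddx3y count, had 211 CPM. MLIV replicate 2, with both Xist and Ddx3y, had 205 CPM, and MLIV replicate 3, with low Xist, 184 CPM. The libraries labelled WT, with low Xist, ran from 120 to 222 CPM. The part of sex in these values was not tested. Atp6v1h, the regulatory H subunit, had 40.5, 35.7 and 43.3 CPM in MLIV, against 34.7, 31.6 and 37.8 CPM in FD, which overlapped (0.20 ± 0.18, adjusted p of 0.641).

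The 2 members of opposite sign belonged to V0. Atp6v0b had 99.1, 99.5 and 112 CPM in MLIV, against 132, 145 and 125 CPM in FD (log2 fold change -0.38 ± 0.13, adjusted p of 0.125 by edgeR with 8 libraries). Atp6v0a1 had 237, 221 and 202 CPM in MLIV, against 252, 239 and 343 CPM in FD (-0.34 ± 0.15, adjusted p of 0.240). Neither gene passed the test, although the groups did not overlap for either.

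**Figure D3:**
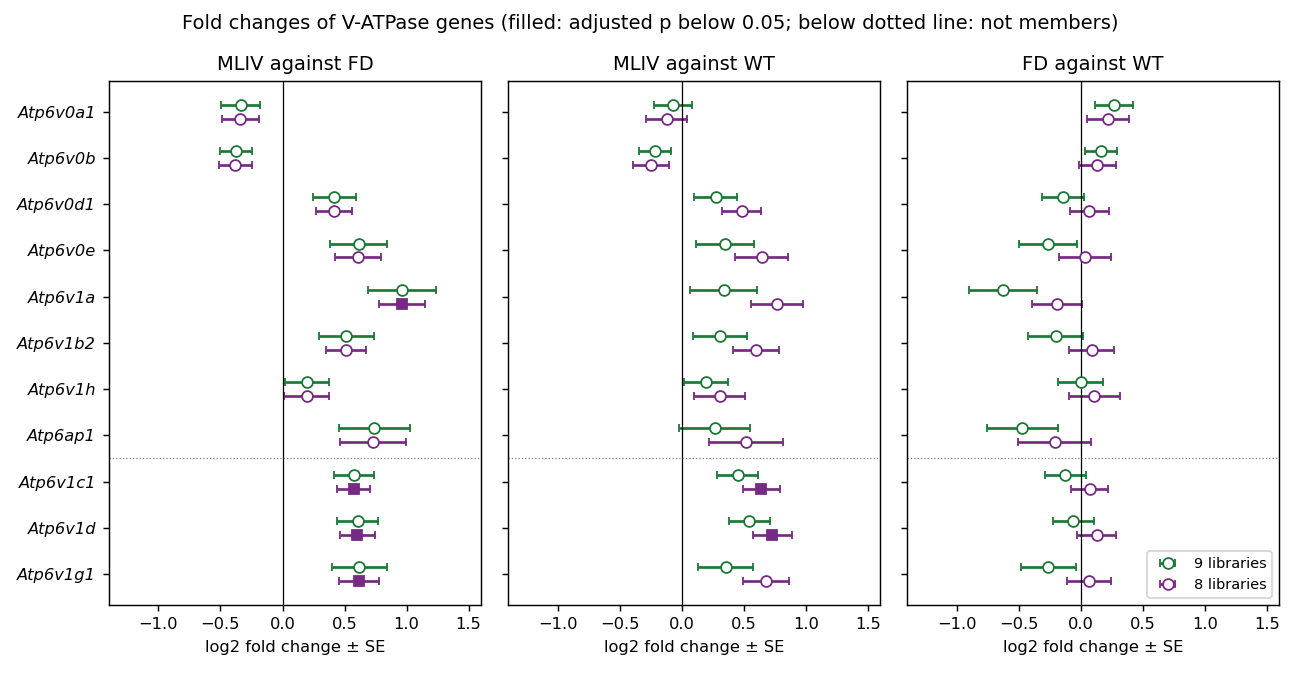
Log2 fold change with its SE for 8 members and 3 further V1 subunits in the 3 comparisons, with 9 and 8 libraries; filled squares have an adjusted p below 0.05. Atp6v1a was the only member to pass, in MLIV against FD with 8 libraries (0.96 ± 0.18).

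MLIV against WT compares the libraries by their labels, and the MLIV libraries were mixed in sex. With 9 libraries, the WT group holds the library with a Mcoln1 count like those of MLIV. With 9 libraries no member and no gene at all (0% of 15340) passed edgeR's quasi-likelihood test. No member had an unadjusted p below 0.05, against 4.64% of genes, and DESeq2 called no member, against 0.0903% of genes. The library labelled WT replicate 3 lay above the other WT libraries for Atp6v0d1, Atp6v0e, Atp6v1a, Atp6v1b2, Atp6v1h and Atp6ap1. Without it no member passed, against 1.7% of 17440 genes, 4 had an unadjusted p below 0.05 (10.1% of genes) and DESeq2 called 1, Atp6v1a (6.46% of genes). The median over the 9 members was 0.27 against -0.03 over all genes with 9 libraries, and 0.48 against -0.13 with 8 libraries. The medians over all genes include genes of low counts, and those of expressed genes are given below by length.

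Atp6v1a had 76.7, 72.9 and 67.6 CPM in MLIV, against 38.5, 45.7 and 87.1 CPM in WT, where the last is the library labelled WT replicate 3. Its log2 fold change was 0.34 ± 0.27 with that library (adjusted p of 0.999 by edgeR) and 0.77 ± 0.21 without it (adjusted p of 0.0942). The estimate thus moved by more than 1.5 times with 1 library. Atp6v0e was 0.65 ± 0.21 (adjusted p of 0.207), Atp6v1b2 0.60 ± 0.19 (0.165) and Atp6v0d1 0.48 ± 0.16 (0.215) on the log2 scale without it. For 5 members MLIV lay above WT replicates 1 and 2 in every library and for 1, Atp6v0b, below, against 17.4% and 15.4% of all genes. FD replicate 3 is in neither group compared here, but enters this fit through the filter, the scaling and the shared spread. Without it as well 5 members passed (Atp6v1a, Atp6v0e, Atp6v1b2, Atp6v0d1 and Atp6ap1), against 8.68% of genes.

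FD against WT compares the libraries by their labels, and sex and FD cannot be told apart in it. No member passed edgeR's test with 9 libraries (0.339% of genes did) or 8 libraries (0.31%), and DESeq2 called none (1.16% and 0.911% of genes). At an unadjusted p below 0.05 there was 1 member with 9 libraries (Atp6v1a, -0.63 ± 0.27, adjusted p of 0.615), against 8.01% of genes, and none with 8 libraries, against 4.2% (Atp6v1a, -0.19 ± 0.20, adjusted p of 0.983). The median over the members was -0.20 with 9 libraries and 0.07 with 8, against -0.08 and -0.12 over all genes. Atp6v1a had 42.2, 41.0 and 27.9 CPM in FD, against 38.5 and 45.7 CPM in WT replicates 1 and 2. All comparisons with WT share its libraries, and the calls of MLIV against WT and FD against WT were not set against each other.

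Among the other genes of the pump, the calls of edgeR's main fits were all in the V1 sector. DESeq2 also called the V0 gene Tcirg1 with 8 libraries. In MLIV against FD with 8 libraries, edgeR called Tcirg1 too with library totals and with a minimum of 10 counts in every library. It called Rnasek with no filter on low counts and Atp6ap2 without FD replicate 2. Of 14 other subunit genes tested with 8 libraries, 3 were higher in MLIV than in FD and none lower, against 5.63% of all genes called (9 by sign higher, median log2 fold change 0.37 against -0.03 over all genes). Atp6v1c1, the C subunit that leaves the complex on disassembly, had 167, 164 and 156 CPM in MLIV, against 106, 107 and 114 CPM in FD (0.57 ± 0.13, adjusted p of 0.0200 by edgeR). Atp6v1d, of the central stalk, had 99.2, 102 and 98.3 CPM in MLIV, against 65.9, 66.7 and 64.0 CPM in FD (0.60 ± 0.14, adjusted p of 0.0206). Atp6v1g1, of the peripheral stalk, had 74.2, 95.1 and 72.2 CPM in MLIV, against 52.3, 54.5 and 50.5 CPM in FD (0.61 ± 0.16, adjusted p of 0.0378). Against WT without the library labelled WT replicate 3, Atp6v1c1 (0.64, adjusted p of 0.0424) and Atp6v1d (0.73, adjusted p of 0.0296) were also higher in MLIV, 2 of 14 against 1.7% of all genes. DESeq2 with 8 libraries called 5 in MLIV against FD (Atp6v1c1, Atp6v1d, Atp6v1g1 and Atp6v1f higher, Tcirg1 lower; 14.6% of genes) and 4 in MLIV against WT (Atp6v1c1, Atp6v1d and Atp6v1g1 higher, Tcirg1 lower; 6.46% of genes). Tcirg1 had 213, 232 and 242 CPM in MLIV, against 294, 287 and 279 CPM in FD. With 9 libraries no other subunit gene passed edgeR's main test in any comparison. DESeq2 called 4 in MLIV against FD (Atp6v1c1, Atp6v1d and Atp6v1f higher and Atp6v1g2 lower, against 12% of genes). There edgeR called Atp6v1c1 and Atp6v1d with a minimum of 10 counts in every library (5.41% of genes) and in the fit of only MLIV and FD (5.01%). It also called both without WT replicate 1 (3.07%). Each passed in 5 of 18 alternatives, with DESeq2 and the fit without the library labelled WT replicate 3 among them. Over 17 alternatives in MLIV against FD with 8 libraries, Atp6v1c1 passed in 13 (adjusted p of 8.65e-05 to 0.537), Atp6v1d in 11 (0.000210 to 0.654) and Atp6v1g1 in 7 (0.00649 to 0.710). All 3 calls were lost without MLIV replicate 1, MLIV replicate 2 or FD replicate 1, those of Atp6v1d and Atp6v1g1 also without MLIV replicate 3, and that of Atp6v1g1 also without FD replicate 2 or WT replicate 1. Against WT, the calls of Atp6v1c1 and Atp6v1d were lost without any 1 of the MLIV libraries or of WT replicates 1 and 2, and that of Atp6v1c1 also without FD replicate 1.

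None of 12 assembly factors and regulators tested and none of the 4 MiT family genes passed edgeR's test in any comparison with 9 or 8 libraries. At an unadjusted p below 0.05 there was at most 1 of the 12 in a comparison and none of the 4, where 4.2% to 19.4% of all genes had one, so nothing particular to these lists can be read from the counts, and DESeq2 called none of either list.

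Gene length moved with the groups. Among 207 genes under 1 kb of exon with an average log2 CPM of at least 5, the median log2 fold change of MLIV against FD was 0.84 (9 libraries). It was 0.26 in 733 genes of 1 to 2 kb, 0.06 in 2049 of 2 to 4 kb and -0.09 in 2344 over 4 kb. These short genes deviated by 0.42 to 0.58 (log2, median) in MLIV, by -0.49 to -0.28 in FD, by -0.58 and -0.22 in WT replicates 1 and 2 and by 0.46 in the library labelled WT replicate 3. Atp6v0e (796 bases of exon) at 0.61 lay below the median of its length class, and Atp6v0b (996 bases) at -0.38 far below it. Atp6v1a (3946 bases) at 0.97 lay above the 0.06 of its class. For MLIV against WT with 8 libraries, the medians of these length classes were 0.83, 0.31, 0.12 and -0.02, from short to long.

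**Figure D4:**
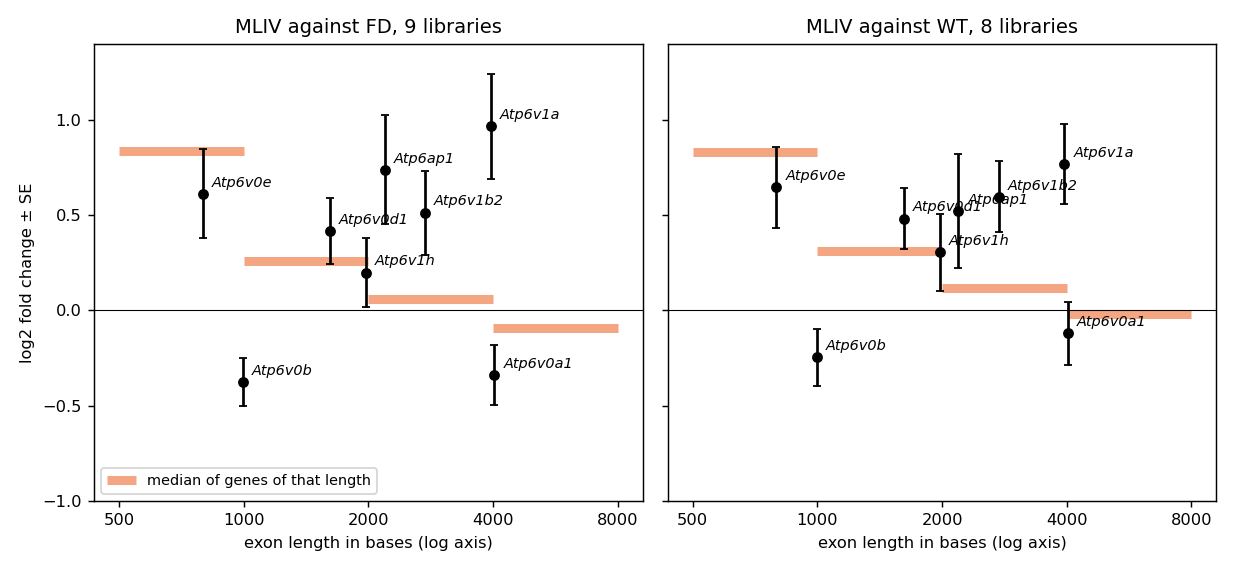
Log2 fold change with its SE of 8 members against exon length (log axis), MLIV against FD with 9 libraries (left) and MLIV against WT with 8 libraries (right). Bars are the medians of expressed genes in 4 length classes, 0.84 in the shortest for MLIV against FD; the outermost bars are drawn from 500 and to 8000 bases.

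With an offset for this trend read from all genes, no member passed in any comparison, and Atp6v1c1, Atp6v1d and Atp6v1g1 did not pass in MLIV against FD with 8 libraries either (adjusted p of 0.537, 0.654 and 0.709 by edgeR). An offset read only from genes of average log2 CPM of at least 5, chosen after the result of the first was known, left Atp6v1a (0.95 ± 0.18, adjusted p of 0.00854) and Atp6v1c1 (0.43 ± 0.11, adjusted p of 0.0355) past the threshold and added Atp6v0b as lower in MLIV (-0.94 ± 0.12, adjusted p of 0.000882). Atp6v0e then had -0.13 ± 0.16. The part of gene length in the values without an offset was not tested further.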

How the data were processed

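Microglial RNA libraries were made with the Clontech RNA-Seq Pico kit. The authors aligned reads with STAR 2.5.1 to mm10 and deposited whole-number counts per gene from featureCounts 1.4.6-p3, run in 1 command over 21 libraries, 9 of them used here, with no option for strand or read pairs. The exon length beside each gene is a deposited value of another kind, in bases. The deposited tables of fold changes and p-values for FD and MLIV against WT were not used. Libraries held 22772300 to 37801200 counts.

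Counts were filtered with filterByExpr, scaled by TMM and tested with edgeR 4.0.16 (R 4.3.3, quasi-likelihood, robust) over the 3 groups together, with p-values adjusted over all genes tested and a threshold of 0.05. The standard error of a log2 fold change was taken from the estimate and its F statistic. CPM were TMM scaled. DESeq2 1.42.0 was an alternative. The 8-library fit leaves out the library labelled WT replicate 3 because of its Mcoln1 count. Intervals and floors (3 counts) cover counting error only. Same-numbered libraries did not deviate together (r of -0.298 to 0.190), so the numbers were not taken as pairs. The scripts were tested on simulated counts.

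The members and lists (16 other subunits, 13 assembly factors and regulators, 15 other lysosomal ion transport genes, 4 MiT family genes) were chosen with earlier results of these data known. Named genes were the 10 members, up to 6 other subunits and 4 regulators of smallest p, Tcirg1, Atp6ap2, Tfeb, Tfe3, Mitf, Mcoln1 and Gla. Alternatives were first run for all named genes, and then kept, after those results were seen, for the 10 members, Atp6v1c1, Atp6v1d, Atp6v1g1, Mcoln1 and Gla, the genes whose tests are given. The 2 length offsets were added after seeing the data: the first read the trend from all genes, and the second, from genes of average log2 CPM of at least 5, was specified after the first had removed the Atp6v1a call. Both are reported. Of 15 other ion transport genes, 14 were tested. In MLIV against FD with 8 libraries none was called higher and 2 lower, against 3.5% and 2.13% of all genes. The 2 were Clcn5 and Mcoln1, and the fall of Mcoln1 was set by the design, as it is the gene targeted in MLIV.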

Additional observations from a re-analysis of the deposited data

Results flagged for a closer look

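Between the disease models, MLIV against FD with 8 libraries, the difference itself passed edgeR's quasi-likelihood test for Atp6v1a (adjusted p of 0.00640), Atp6v1c1 (0.0200), Atp6v1d (0.0206) and Atp6v1g1 (0.0378). In this fit 5.63% of 17440 genes were called. All 4 were higher in each of 3 MLIV libraries than in each of 3 FD libraries, against 14.2% of all genes. None of them passed edgeR's main test with 9 libraries. The calls of Atp6v1c1, Atp6v1d and Atp6v1g1 were lost without some single libraries, as given above. The targeted genes differed too. Mcoln1 was lower in MLIV (adjusted p of 0.00848, 0, 0 and 18 counts against 1442, 1227 and 892). Gla was higher in MLIV (adjusted p of 0.0190, log2 fold change 1.59 ± 0.36). Gla did not pass edgeR's test in FD against WT with 8 libraries (-0.44 ± 0.40, adjusted p of 0.983). The Gla difference between the models therefore does not show a loss of Gla in FD.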

How the results depend on the processing

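The counts of members called depended on the setting. For MLIV against FD with 8 libraries, 1 member was called (5.63% of genes). DESeq2 called 6 (14.6%), library totals 3 (7.3%), no filter on low counts 4 (7.72%) and a minimum of 10 counts in every library 2 (11.2%). A replicate block gave 3 (7.92%). The gene length offset from genes of log2 CPM of at least 5 gave 2 (5.06%), and the offset from all genes 0 (2.05%). A required absolute log2 fold change above 1 also gave 0 (2.52%). Leaving out single libraries gave 1 to 6, with 6 without FD replicate 3 (10.8% of genes). For MLIV against FD with 9 libraries, DESeq2 called 2 (12% of genes). The second length offset called 1 (2.71%), as did the fit of only these groups (5.01%). Leaving out single libraries gave 0 to 1, with 1 without the library labelled WT replicate 3 (5.63%). For MLIV against WT with 8 libraries, DESeq2 (6.46% of genes), no filter (2.94%), the replicate block (2.7%) and the second length offset (0.9%) called 1 each. The fit of only these groups called 5 (7.44%). Leaving out single MLIV or FD libraries gave 0 to 5 (0.801% to 8.68%). The 2 length offsets were both added after seeing the data, and the second was specified after the first had removed the Atp6v1a call (adjusted p of 0.0652 by edgeR). Which of them describes the libraries better was not tested. Library numbers do not pair samples by design, so the block is given here only. Scaling by library totals moved the median over all genes by -0.12 (log2) in MLIV against FD with 8 libraries.

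Signs changed both where the main fold changes were near 0 and where they were not. With 8 libraries and no offset, Atp6v0e was 0.61 in MLIV against FD and 0.65 in MLIV against WT, and the second offset reversed both. The offset from all genes gave, for FD against WT with 9 libraries, log2 values of 0.10 (Atp6v0d1), 0.18 (Atp6v0e), 0.20 (Atp6v1h), 0.057 (Atp6v1c1), 0.22 (Atp6v1d) and 0.079 (Atp6v1g1); for MLIV against FD with 9 libraries -0.0093 (Atp6v0e) and -0.014 (Atp6v1h); with 8 libraries 0.11 (Atp6v0a1, MLIV against WT) and, for FD against WT, 0.059 (Atp6v1a), 0.056 (Atp6ap1) and 0.18 (Mcoln1). The second offset gave Atp6v0e -0.11 in MLIV against WT with 9 and with 8 libraries, -0.14 and -0.13 in MLIV against FD with 9 and 8, and 0.030 in FD against WT with 9, where Atp6v1h had 0.021 and Atp6v1d 0.037. For FD against WT with 8 libraries, library totals gave -0.012 (Atp6v0d1), -0.037 (Atp6v0e), -0.010 (Atp6v1c1) and -0.012 (Atp6v1g1). Atp6v1h in FD against WT with 9 libraries was 0.0048 with no filter and 0.0040 with the replicate block.

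Leaving out single libraries gave these log2 ranges. Atp6v0d2 in MLIV against WT ranged over -0.28 to 1.16 (9 libraries) and -0.63 to 8.28 (8 libraries). For FD against WT with 9 libraries the ranges were -0.29 to 0.068 (Atp6v0d1), -0.49 to 0.036 (Atp6v0e), -0.42 to 0.086 (Atp6v1b2), -0.14 to 0.11 (Atp6v1h), -0.27 to 0.071 (Atp6v1c1), -0.21 to 0.13 (Atp6v1d), -0.45 to 0.065 (Atp6v1g1) and -0.16 to 0.90 (Mcoln1). With 8 libraries they were -0.059 to 0.22 (Atp6v0d1), -2.96 to 5.96 (Atp6v0d2), -0.21 to 0.35 (Atp6v0e), -0.14 to 0.37 (Atp6v1b2), -0.069 to 0.33 (Atp6v1h), -0.39 to 0.089 (Atp6ap1), -0.067 to 0.24 (Atp6v1c1), -0.013 to 0.30 (Atp6v1d), -0.074 to 0.23 (Atp6v1g1), -0.30 to 0.0012 (Mcoln1) and -0.79 to 0.061 (Gla). Where a group then held 1 library, it was assumed to vary like the others. The Atp6v0d2 share in MLIV was 1.35% from counts not divided by length, and 4 promoters held CACGTG. The causes were not tested.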
